A study of Mus musculus with 10 samples.

Results

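Within the 9 months group of a mouse skin series, 2 libraries carried the messenger RNA of growing hair at high levels and 3 did not, and the levels of all genes were compared between these sides. The 2 libraries on the growing-hair side (9 months replicates 4 and 5) and the 3 on the resting side (9 months replicates 1, 2 and 3) are 5 of the 10 libraries of the series. The sides were defined by a measured value, the level of Krt73, a keratin gene of the inner root sheath of the hair follicle. Levels are in CPM, the count over the column total scaled to a common library size. A library with at least 100 CPM of Krt73 was put on the growing-hair side, and a library under 100 CPM on the resting side. By that measure Krt73 stood at 354 and 984 CPM in growing-hair replicates 4 and 5, against 0.890, 10.6 and 8.53 CPM in resting replicates 1, 2 and 3. The value just inside the threshold was therefore 354 CPM and the value just outside it 10.6 CPM. The 5 libraries of the 24 months group are given beside the sides for their levels, and their Krt73 lay between 0.809 and 2.32 CPM. Krt26, Fgf5 and Corin, further markers of growing follicles, separated the same libraries, as described below.

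All 10 libraries came from whole skin of male C57BL/6 mice. The 5 libraries compared here are labelled 9 months old, but the series' own design text states 2 months for them, and the labels name no genotype, treatment, body site or hair cycle stage. Each title carries a number of its own, read as 1 animal per library, which the labels do not state in words. The sides are thus not groups that the study formed.

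Hair follicles cycle between growth (anagen), regression (catagen) and rest (telogen). In growth, matrix cells at the base of the follicle divide around the dermal papilla and become the hair shaft and the inner root sheath, which are rich in keratins and keratin-associated proteins (Krtap), while pigment cells of the bulb pass melanin to the shaft. Wnt, Sonic hedgehog, BMP, FGF and Notch signals direct these steps, and FGF5 is known for ending growth.

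Total counts were 39.0 and 56.0 M (M stands for mega) in growing-hair replicates 4 and 5, against 30.3, 29.3 and 40.3 M in resting replicates 1, 2 and 3. Hair keratin and Krtap genes held 1.99% and 5.00% of all counts on the growing-hair side, against 0.00834%, 0.0608% and 0.0516% on the resting side and 0.00638% to 0.0227% at 24 months. Mitochondrially encoded genes took 4.69% and 2.07% of counts on the growing-hair side, against 4.45%, 3.16% and 3.82% on the resting side. Levels below are CPM after scaling by the trimmed mean of M values (TMM), whose factors lay between 0.924 and 1.02 at 9 months.

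Resting replicate 1 stood apart from the 9 other libraries. Its short transcripts read high and its long ones low. Genes were split into 4 classes of equal size by summed exon length, and deviations were taken from each gene's median over the 10 libraries. In resting replicate 1 the longest class minus the shortest came to -0.81 on the log2 scale. In the 9 other libraries that contrast lay between -0.09 and 0.19, the highest in growing-hair replicate 5. The summed level of 36 ribosomal protein genes, which are short, was 16720 CPM in resting replicate 1 and 8321 to 11060 CPM elsewhere. Values without this library are therefore given for many of the results below.

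**Figure D1:**
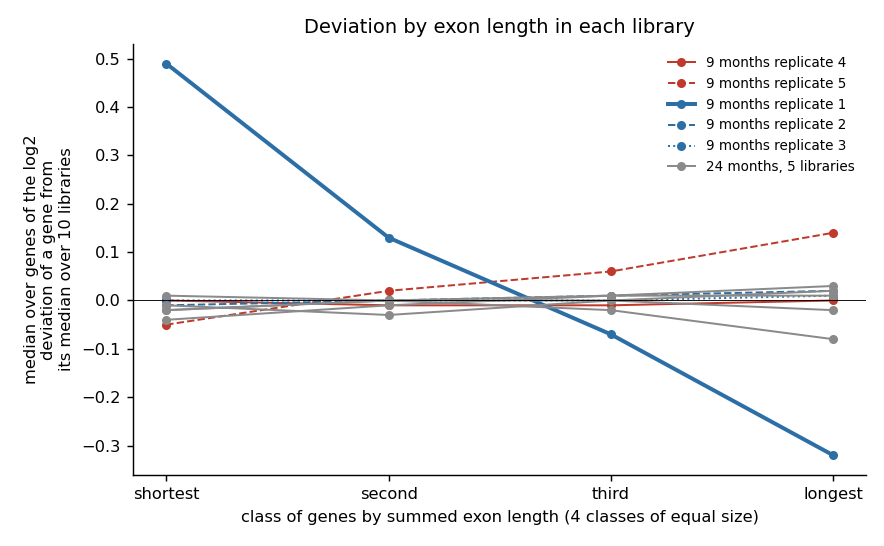
Median log2 deviation of genes from their own median over 10 libraries (vertical axis), by 4 classes of genes from the shortest to the longest summed exon length (horizontal axis), with 1 line per library. Resting replicate 1 (thick line) differs by -0.81 between the end classes, growing-hair replicate 5 by 0.19, and the 8 others lie between -0.09 and 0.06.

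No p-value is given for any difference between the sides. Krt73 chose the libraries, so a test of another gene would reuse the contrast that formed the sides. There are also only 10 ways to choose 2 of 5 libraries, so that an exact permutation test could not give a small p-value. In place of a test, a gene was called higher where its mean over the 5 libraries was at least 1 CPM, both growing-hair libraries lay above all 3 resting libraries, and the side means of log2 CPM differed by at least 2-fold; a lower call is the mirror image of this. Differences are log2 CPM of the growing-hair side minus the resting side (prior count 2), and their SE comes from the spread within sides (n = 2 and 3).

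By this rule 932 of 15009 genes, or 6.21%, were called higher on the growing-hair side, and 192, or 1.28%, were called lower. Counts of called members in the gene lists below are to be read beside these shares. A gene under 1 CPM in every resting library can pass the minimum only through the growing-hair libraries, and then cannot be called lower. In lists that hold such genes, the lack of lower calls is in part built in. Without a minimum size, 17.9% of genes lay above and 16.3% below with no overlap between sides, while the median difference over all genes was -0.01. The counts lean on replicate 5: with replicate 4 left out 1509 genes were called higher and 901 lower, and with replicate 5 left out 617 and 129. Leaving out resting replicate 2 or 3 gave 1152 or 1078 higher genes and 363 or 312 lower genes. Counts of list members with replicate 4 or 5 left out, given below, are to be read beside the counts over all genes in that setting. Of the 932 higher genes, 79 were hair keratins or Krtap genes and 853 were other genes. The other genes had a median difference of 1.62 and a highest of 7.36, and 288 of them differed by at least 4-fold, 109 by at least 16-fold and 42 by at least 64-fold. The lower genes were fewer and their differences smaller, with 3 of 192, Fosb, Fos and Cxcl1, beyond 4-fold. Because the sides were chosen by Krt73, these counts describe the split and do not measure how unusual it is.

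Resting replicate 1 bears mostly on the lower genes. Summed exon length had a median of 1814 bases over the lower genes, 4603 over the higher genes other than hair keratins and Krtap, and 4261 over all genes compared. Of the lower genes 70.5% lay in the shortest class. Without resting replicate 1, 839 of 15018 genes were called higher and 146 lower, of which 766 and 98 were among the calls made with it. Of those 98 lower genes, 64.9% lay in the shortest class, and the part of exon length in them was not tested.

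The higher calls had a common order within the growing-hair side. Of the 932 higher genes, 904, or 97.0%, stood higher in replicate 5 than in replicate 4, with a median ratio of 1.97, against 60.8% and 1.09 over all genes. Both growing-hair libraries also lay above all 5 libraries of the 24 months group for 795 higher genes, or 85.3%, against 14.6% of all genes. The higher genes were chosen for high values in the same 2 libraries, so that a larger share is in part built in. Within the resting side, both replicates 2 and 3 exceeded replicate 1 for 74 of the 79 hair keratin and Krtap genes, as for Krt73. The same held for 67.9% of the other higher genes, against 42.2% of all genes. A low value in resting replicate 1 or a high value in replicate 5 helps a gene reach 2-fold. The orders within both sides are thus also in part built in.

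**Figure D2:**
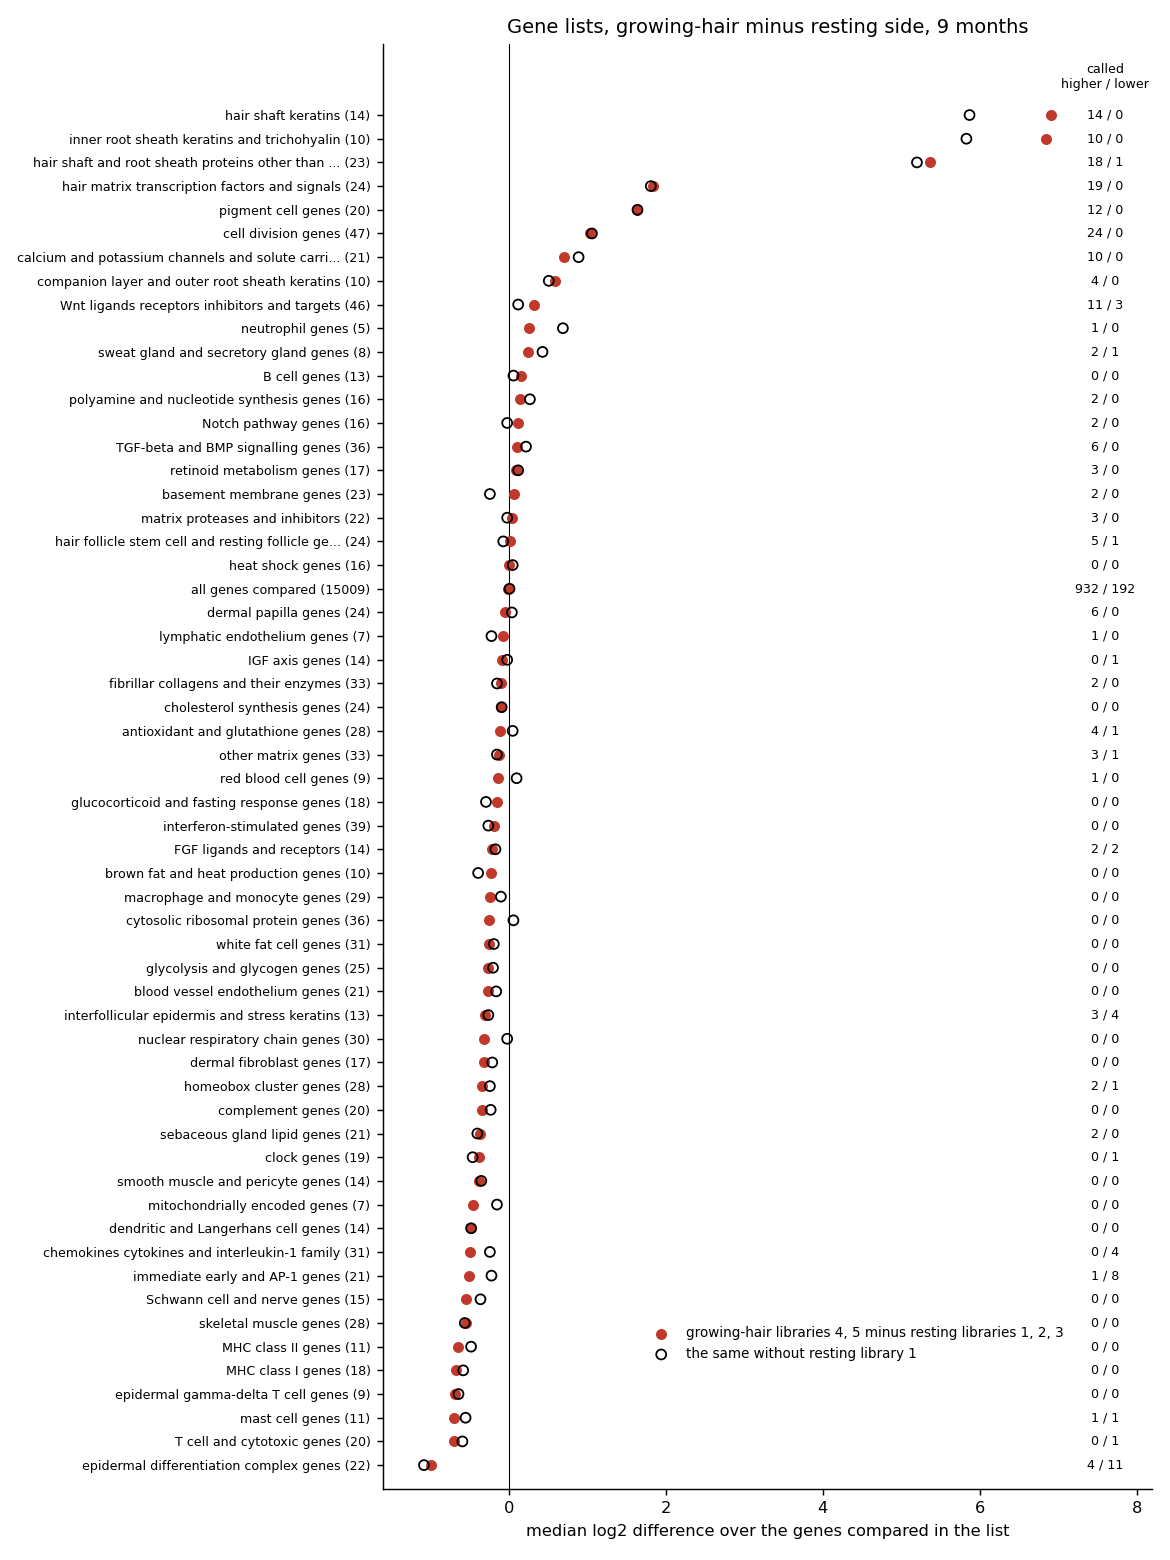
Median log2 difference, growing-hair minus resting side, over the genes compared in each gene list (filled), and the same without resting replicate 1 (open). The number of genes compared stands after each list name and calls are given at the right; the lists of inner root sheath keratins, hair shaft keratins and other hair shaft and root sheath proteins lie between 5.36 and 6.91, the companion layer and outer root sheath keratins at 0.59, the list of all 15009 genes at -0.01, and the epidermal differentiation complex at -0.99.

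The keratins of the inner root sheath and of the hair shaft marked the split. All 10 root sheath members, the keratins and trichohyalin among them, and all 14 hair shaft keratins compared were called higher, with median differences of 6.84 and 6.91. A gene can pass the minimum of 1 CPM through the growing-hair libraries alone, and Krt73 formed the sides, so that these calls say little beyond the rule. Krt26, a further root sheath keratin, stood at 342 and 1068 CPM in growing-hair replicates 4 and 5, against 1.03, 12.8 and 8.27 CPM in resting replicates 1, 2 and 3. Krt82, a keratin of the hair cuticle, stood at 54.2 and 112 CPM, against 0.0713, 0.867 and 1.2 CPM. Tchh, the trichohyalin that fills root sheath cells, stood at 2562 and 9973 CPM, against 13.8, 96.1 and 69.5 CPM. In each of the 3, the growing-hair libraries lay far above the resting ones and resting replicate 1 was the lowest of the 5.

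Promoters are shown for Krt73, for a Krtap gene and for 2 immediate early genes, Fos and Dusp1, which were called lower and are described further on. Each sequence runs 5′ to 3′ on the gene's strand over 250 bases before and 50 after the start, from RefSeq on GRCm38.p6, with matched motifs in capitals. Krt73 is at chr15:101802311-101802610 on the minus strand, and Krtap11-1, which encodes a keratin-associated protein of the shaft, is at chr16:89571134-89571433 on the minus strand. Krtap11-1 stood at 237 and 560 CPM in growing-hair replicates 4 and 5, against 0.678, 8.17 and 6.74 CPM in resting replicates 1, 2 and 3. Fos is at chr12:85473640-85473939 on the plus strand, and Dusp1 at chr17:26508423-26508722 on the minus strand.
Krt73: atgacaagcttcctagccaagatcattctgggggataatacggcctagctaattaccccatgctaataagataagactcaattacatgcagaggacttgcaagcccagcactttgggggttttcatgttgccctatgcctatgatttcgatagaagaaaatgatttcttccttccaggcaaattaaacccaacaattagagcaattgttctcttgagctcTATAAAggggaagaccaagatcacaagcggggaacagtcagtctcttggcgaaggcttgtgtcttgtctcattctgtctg
Krtap11-1: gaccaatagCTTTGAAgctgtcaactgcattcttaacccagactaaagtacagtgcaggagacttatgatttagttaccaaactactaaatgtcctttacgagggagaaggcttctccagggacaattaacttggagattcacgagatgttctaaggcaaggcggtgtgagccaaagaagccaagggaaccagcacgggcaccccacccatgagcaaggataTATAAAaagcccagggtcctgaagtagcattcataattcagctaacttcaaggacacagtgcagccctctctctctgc
Fos: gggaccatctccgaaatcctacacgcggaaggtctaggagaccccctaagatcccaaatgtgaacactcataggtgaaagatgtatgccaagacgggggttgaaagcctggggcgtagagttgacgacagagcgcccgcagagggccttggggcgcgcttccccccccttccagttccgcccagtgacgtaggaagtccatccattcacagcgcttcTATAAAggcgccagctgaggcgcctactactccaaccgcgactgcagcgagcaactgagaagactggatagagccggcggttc
Dusp1: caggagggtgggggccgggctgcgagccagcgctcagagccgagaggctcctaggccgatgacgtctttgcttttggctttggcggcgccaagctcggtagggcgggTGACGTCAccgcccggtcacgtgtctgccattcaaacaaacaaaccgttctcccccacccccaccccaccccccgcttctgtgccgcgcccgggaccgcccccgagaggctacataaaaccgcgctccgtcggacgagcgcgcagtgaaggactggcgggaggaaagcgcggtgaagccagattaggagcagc

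The motifs searched on both strands were TATAAA, the TATA box, CTTTGAA, a core that LEF1 and TCF proteins bind, and TGACGTCA, the cyclic AMP response element. The TATA box begins 30 bases before the start in Krt73, 28 before it in Krtap11-1 and 33 before it in Fos. CTTTGAA begins 241 bases before the start of Krtap11-1, and TGACGTCA begins 143 bases before that of Dusp1. Of all 27025 promoters, 14.2% held TATAAA, 5.27% CTTTGAA and 1.88% TGACGTCA. Among the 66 hair keratin and Krtap genes with a listed promoter, 52, or 78.8%, held TATAAA and 16, or 24.2%, held CTTTGAA. For the other higher genes the shares were 11.6% and 4.54% of 595 promoters, for the lower genes 19.8% and 3.05% of 131, and for genes compared and not called 7.56% and 3.64% of 10543. TGACGTCA was in 0 of the 66 hair promoters, in 2.86% of those of the other higher genes, in 1.53% of those of the lower genes (2 of 131) and in 3.07% of those not called. The hair families are sets of related copies, so that their promoters are not independent of each other, and a match describes letters only.

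Structural and enzyme genes of the follicle other than keratins followed the same order. Of 23 compared, 18 were called higher and 1, Calm4, lower, with a median difference of 5.36. Padi1, an enzyme that turns arginine in proteins into citrulline, stood at 33.9 and 133 CPM in growing-hair replicates 4 and 5, against 0.0713, 1.37 and 0.702 CPM in resting replicates 1, 2 and 3 (difference 7.04 ± 1.55, SE). Gprc5d, a membrane receptor known from hair-forming cells, stood at 180 and 420 CPM, against 0.392, 5.13 and 4.24 CPM. Dsg4, the desmosomal cadherin of the hair shaft, stood at 51.5 and 138 CPM, against 0.143, 1.23 and 1.2 CPM. In these 3 genes the lower growing-hair library lay far above the highest resting one, and replicate 5 was the highest library in each.

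The largest differences outside the hair keratins and Krtap also took in genes with less familiar roles in hair. Tgm6, a transglutaminase that cross-links proteins, stood at 50.3 and 141 CPM on the growing-hair side, against 0.143, 1.93 and 1.07 CPM on the resting side. Lyg2, a lysozyme-like gene, stood at 52.9 and 86.8 CPM, against 0.107, 0.867 and 1.4 CPM. Calhm4, of a family of large-pore channels, stood at 107 and 234 CPM, against 0.321, 3.20 and 2.86 CPM. All 3 showed the order of Krt73 over the 5 libraries in that resting replicate 1 was lowest and growing-hair replicate 5 highest.

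Further genes of this group were Cdh6, a cadherin of cell adhesion, Capn8, a calpain protease, Ctse, an aspartic protease, Actbl2, an actin-like gene, Kcne1, a potassium channel subunit, and Ggt1, which breaks down glutathione outside cells. Their differences were 6.5, 6.28, 6.12, 5.97, 5.81 and 5.81. Cdh6 was evenly low on the resting side, at 9.13 and 23.3 CPM in growing-hair replicates 4 and 5, against 0.0713, 0.133 and 0.130 CPM in resting replicates 1, 2 and 3. Without resting replicate 1 its difference was 6.34, and that of Padi1 was 6.03, that of Gprc5d 5.87 and that of Tgm6 5.83.

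Transcription factors and signals of the hair matrix were called higher for 19 of 24 genes compared, with a median of 1.84. Without resting replicate 1, 17 were called higher. The median was 1.16 without replicate 5 and 2.51 without replicate 4. Hoxc13, a homeobox factor needed for hair keratin genes, stood at 47.2 and 133 CPM in growing-hair replicates 4 and 5, against 6.74, 7.40 and 5.41 CPM in resting replicates 1, 2 and 3. Msx2, a homeobox factor of the matrix, stood at 51.5 and 131 CPM, against 7.10, 6.43 and 5.12 CPM, and Dlx3 at 139 and 368 CPM, against 23, 31.0 and 28.0 CPM. The resting libraries held low but measurable levels of these factors, and resting replicate 1 was not always the lowest. Foxn1, the factor lost in nude mice, stood at 44.5 and 99.4 CPM, against 8.74, 15.6 and 11.0 CPM. Foxe1, a forkhead factor, had the largest difference of the list at 5.19 ± 0.74 (SE), with 7.54 and 28.8 CPM, against 0.285, 0.367 and 0.416 CPM. In these bulk samples, fewer cells of a type and less RNA per cell cannot be told apart.

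Sonic hedgehog, the matrix signal encoded by Shh, was at low levels throughout. Shh stood at 3.23 and 7.15 CPM in growing-hair replicates 4 and 5, against 0.0713, 0.233 and 0.286 CPM in resting replicates 1, 2 and 3. Its receptor gene Ptch1 and its effectors Gli1 and Gli2 were called higher. Edar, a receptor of follicle formation, and Trps1, a zinc finger factor, were called with all 5 libraries and not without resting replicate 1, where their differences were 0.86 and 0.99.

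Among Wnt pathway genes, 11 of 46 were called higher and 3 lower, with a median of 0.32. The list leans on replicate 5: without it 5 genes were called higher and 0 lower, and without replicate 4, 16 and 7. Without resting replicate 1 the counts were 11 and 2 and the median 0.12, and with the 24 months libraries put on the resting side none was called lower. Lef1, the nuclear partner of beta-catenin in the matrix (chromosome 3), stood at 19.5 and 42.0 CPM in growing-hair replicates 4 and 5, against 1.6, 2.13 and 1.64 CPM in resting replicates 1, 2 and 3 (difference 3.97 ± 0.45, SE). Rspo4, a secreted enhancer of Wnt signals, stood at 4.94 and 16.9 CPM, against 0.464, 0.933 and 0.598 CPM. Wnt5a, a ligand, stood at 52.7 and 85.6 CPM, against 25.6, 26.1 and 31.1 CPM. All 3 were called, which requires sides without overlap, and without replicate 5 the difference of Wnt5a was 0.94. Wnt10b, a ligand tied to the start of growth, differed by 0.70 ± 0.36 (SE) and was not called, at 12.4 and 21.7 CPM, against 8.10, 11.5 and 11.0 CPM.

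Some Wnt ligand genes stood the other way. Wnt7b stood at 43.6 and 30.5 CPM in growing-hair replicates 4 and 5, against 65.5, 76.9 and 79.6 CPM in resting replicates 1, 2 and 3. Its difference of -1.01 is at the edge of the rule. Wnt7b was not called with column totals, at -0.98, with totals without hair genes, at -0.92, or with edgeR's fitted fold changes. Nor was it called without resting replicate 2 or 3, at -0.98 and -0.96. With the 24 months libraries on the resting side it was not called either, at -0.77. Without resting replicate 1 it was called, at -1.10, and without replicate 5 the difference was -0.76. Wnt7a, near the minimum of 1 CPM, was called with all 5 libraries at -1.40 and not without resting replicate 1, where its difference was -1.17. Dkkl1, a relative of the Wnt inhibitors, stood at 48.4 and 27.4 CPM, against 115, 80.1 and 70.6 CPM.

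In the TGF-beta and BMP list, 6 of 36 genes were called higher and 0 lower, with a median of 0.11. Without replicate 5 the counts were 2 higher and 2 lower and the median -0.01. Bmp8a, a BMP ligand, stood at 4.81 and 10.4 CPM in growing-hair replicates 4 and 5, against 0, 0.333 and 0.286 CPM in resting replicates 1, 2 and 3. Bambi, a decoy receptor that dampens these signals, stood at 35.1 and 79.0 CPM, against 10.5, 6.8 and 7.51 CPM. Bmp4, which is also active in resting dermis, did not separate the sides, at 21.1 and 33.1 CPM against 30.6, 25.7 and 23.7 CPM. The intracellular brakes Smad6 and Smad7 were among the higher calls. In the Notch list, Heyl, a target of the pathway, stood at 20.0 and 45.0 CPM, against 4.17, 4.87 and 7.83 CPM. The receptor gene Notch1 was called only with resting replicate 1, its lowest library at 34.2 CPM; without it the difference was 0.74.

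FGF genes were called both ways, 2 higher and 2 lower of 14 compared. Without replicate 5 the counts were 1 and 1, without replicate 4 they were 2 and 4, and with the 24 months libraries put on the resting side they were 2 and 0. Fgf5, the signal that ends hair growth, stood at 4.08 and 22.1 CPM in growing-hair replicates 4 and 5, against 0.321, 0.5 and 0.286 CPM in resting replicates 1, 2 and 3 (difference 4.54 ± 0.94, SE). Replicate 5 stood 5.4-fold above replicate 4 in this gene, against 2.74-fold for Krt73. Fgf22, made by follicle cells, stood at 4.79 and 9.76 CPM, against 1.93, 3.07 and 2.70 CPM, and was not called without replicate 5, at 0.91. Fgf18, a ligand known from the resting follicle, stood at 3.80 and 2.31 CPM, against 9.24, 7.57 and 7.62 CPM (difference -1.44 ± 0.29, SE). As its lower call requires, it lay below every resting library on the growing-hair side, and 24 months libraries held 2.12 to 7.74 CPM. Fgf9 was called lower with resting replicate 1 and not without it, at -0.91.

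Dermal papilla genes gave 6 higher calls of 24, 0 lower calls and a median of -0.05. Corin, a protease of the papilla of growing follicles, stood at 4.42 and 14.0 CPM in growing-hair replicates 4 and 5, against 0.856, 0.5 and 0.728 CPM in resting replicates 1, 2 and 3. Hhip, which binds hedgehog, stood at 2.39 and 8.26 CPM, against 0.428, 0.467 and 0.546 CPM, and Pappa, a protease acting on IGF-binding proteins, at 9.26 and 24.5 CPM, against 1.39, 3.70 and 3.20 CPM. Inhba, Alx4 and Wif1 were the other 3. By the rule for a call the sides do not overlap in these 6, and each stood higher in replicate 5 than in replicate 4. With the 24 months libraries put on the resting side, 5 genes of the list were called higher and the median was 0.18. Without replicate 5 the median was -0.01, and the differences of Hhip and Inhba were 2.19 and 1.48.

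Stem cell and resting follicle genes gave 5 higher calls, 1 lower call and a median of 0.02 over 24 genes. Lgr5, a receptor of follicle stem cells, stood at 35.9 and 97.9 CPM in growing-hair replicates 4 and 5, against 25.7, 30.4 and 23.7 CPM in resting replicates 1, 2 and 3. Runx1, a factor of follicle renewal, stood at 29.4 and 74.3 CPM, against 14.3, 17.6 and 13.7 CPM. In Lgr5 replicate 4 lay close above the resting side, and the call rests on replicate 5, without which the difference was 0.44. Without replicate 5 none of the 5 higher genes (Lgr5, Runx1, Lhx2, Tbx1 and Sox9) was called, with Runx1, Lhx2 and Tbx1 at 0.96, 0.51 and 0.77. Krt15, a keratin of the bulge and basal layer, stood at 1679 and 1454 CPM, against 4217, 2947 and 2265 CPM, and Cd34, carried by bulge and vessel cells, at 204 and 238 CPM, against 371, 290 and 281 CPM. Both lay lower on the growing-hair side in all libraries, at -0.96 and -0.50, without reaching 2-fold.

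**Figure D3:**
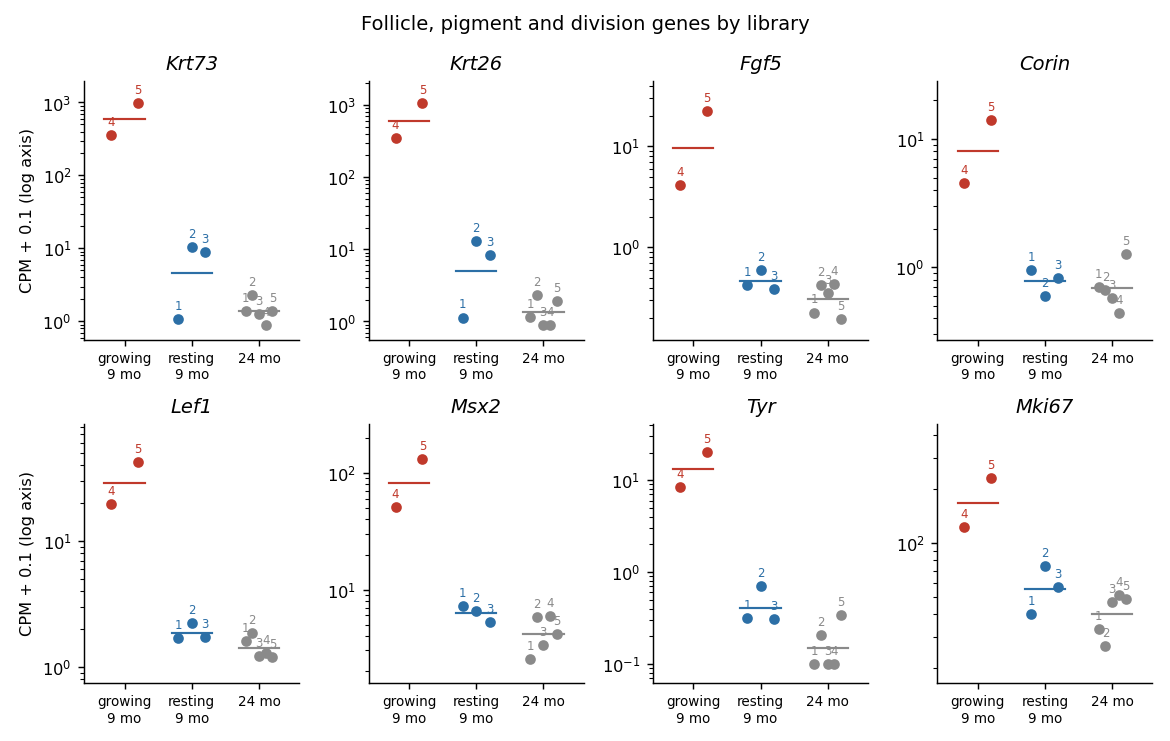
CPM plus 0.1 on a log axis for 8 genes, 1 point per library labelled with its replicate number, for the growing-hair side, the resting side and the 24 months group; bars are geometric means. In every panel both growing-hair points lie above all resting points, from Krt73 at 359 and 984 against at most 10.4 CPM to Mki67 at 122 and 230 against at most 74.0 CPM.

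Pigment genes were called higher for 12 of 20 compared and lower for 0, with a median of 1.64 with and without resting replicate 1. Tyr, the rate-limiting enzyme of melanin synthesis, stood at 8.35 and 20.3 CPM in growing-hair replicates 4 and 5, against 0.214, 0.600 and 0.208 CPM in resting replicates 1, 2 and 3. Tyrp1, a further melanin enzyme, stood at 37.1 and 85.8 CPM, against 1.07, 2.27 and 1.46 CPM, and Oca2, a melanosome transporter, at 3.59 and 6.79 CPM, against 0, 0.0333 and 0.104 CPM. In these 3 genes no resting library passed 2.27 CPM. Tyr and Oca2 were under 1 CPM in every resting library, so that they passed the minimum only through the growing-hair libraries. Replicate 4 alone, with replicate 5 left out, gave 7 higher calls. Mitf, the master factor of pigment cells, differed by 0.85 and Sox10, a factor of neural crest cells, by -0.12, and neither was called. Dct, a melanin enzyme, was called higher with a difference of 3.69. Kit, the receptor of pigment and mast cells, stood at 23 and 38.6 CPM, against 9.17, 12.4 and 11.8 CPM.

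Cell division genes were called higher for 24 of 47, or 51.1%, against 6.21% of all genes, and lower for 0, with a median of 1.03. Of the 47, 43 lay above the resting side without overlap, against 17.9% of all genes. Mki67, a marker of dividing cells, stood at 122 and 230 CPM in growing-hair replicates 4 and 5, against 40.2, 74.0 and 56.8 CPM in resting replicates 1, 2 and 3. Uhrf1, which keeps DNA methylation through replication, stood at 28.1 and 54.3 CPM, against 7.28, 15.4 and 12.9 CPM. Dtl, of a replication-linked ubiquitin ligase, stood at 10.4 and 18.6 CPM, against 3.42, 5.43 and 4.55 CPM. The differences of the list reached at most 1.78 on the log2 scale, far less than those of the hair proteins. Replicate 4 alone, with replicate 5 left out, gave a median of 0.58, and replicate 5 alone gave 1.45. Odc1, the first enzyme of polyamine synthesis, differed by 0.58 and was not called, and Ctps, which makes CTP, stood at 90.3 and 198 CPM, against 28.8, 30.5 and 26.4 CPM.

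Channels, gap junctions and transporters of the follicle were called higher for 10 of 21 and lower for 0, with a median of 0.71. Gjb2, encoding the gap junction protein connexin 26, stood at 312 and 931 CPM in growing-hair replicates 4 and 5, against 8.85, 22.1 and 14.2 CPM in resting replicates 1, 2 and 3. Gja1, encoding connexin 43, stood at 740 and 1904 CPM, against 227, 286 and 238 CPM, and Gjb6, encoding connexin 30, at 27.6 and 81.3 CPM, against 2.46, 3 and 1.92 CPM. All 3 connexin genes were higher in both growing-hair libraries than in any other library of the series, with 24 months levels of at most 18.7, 249 and 2.38 CPM. Trpm1, a cation channel gene of pigment cells, stood at 19.4 and 43.9 CPM, against 0.749, 1.5 and 1.64 CPM.

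Retinoid and glutathione genes held a few large differences in lists that otherwise stayed near 0. Stra6, a retinol uptake receptor, stood at 32.7 and 77.6 CPM in growing-hair replicates 4 and 5, against 5.56, 11.2 and 3.48 CPM in resting replicates 1, 2 and 3, and Lrat, which stores retinol as esters, at 10.5 and 24.5 CPM, against 3.14, 3.20 and 2.65 CPM. With Dhrs9, they were the 3 higher calls of 17 retinoid genes. Slc7a11, which imports cystine for glutathione and pigment, stood at 10.9 and 30.7 CPM, against 0.571, 1.23 and 1.12 CPM. Gclc and Gclm, the subunits that make the first step of glutathione synthesis, and Gpx2 were called higher as well, 4 of 28 in all, with Gsta2 lower; without replicate 5, 1 was called higher and 0 lower.

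In the matrix lists the shares called higher were near or above the 6.21% of all genes: 3 of 33 other matrix genes (9.09%), 3 of 22 matrix proteases and inhibitors (13.6%), 2 of 23 basement membrane genes (8.7%) and 2 of 33 fibrillar collagens and their enzymes (6.06%). Tnc, the glycoprotein tenascin C, stood at 52.1 and 129 CPM in growing-hair replicates 4 and 5, against 5.60, 15.2 and 28.9 CPM in resting replicates 1, 2 and 3, and Thbs1, encoding thrombospondin 1, at 116 and 311 CPM, against 51.6, 60.9 and 93.2 CPM. At 24 months Thbs1 ranged from 49.0 to 420 CPM, on both sides of the growing-hair values. Fibrillar collagens and their enzymes had a median of -0.10, and their higher calls were Col11a1 and Plod2. Col1a1, the main collagen of dermis, overlapped between sides, at 2146 and 2428 CPM, against 2132, 2746 and 3203 CPM, and so did Col3a1. With most shares near that of all genes, the few calls are not read as a trait of the matrix lists. Thbs1, Fbn2 and Lamb1, all called higher, were not called without replicate 5, at 0.80, 0.79 and 0.67. Adamts18 and Adamts20, secreted proteases, were called higher with differences of 3.80 and 3.21. Adamts18 was not called without replicate 5, though its difference was still 3.13.

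Genes of the interfollicular epidermis, the surface layer between follicles, gave lower calls for its late, cornifying stages. In the epidermal differentiation complex, a gene cluster of barrier proteins, 11 of 22 were called lower and 4 higher, with a median of -0.99 (12 lower, 4 higher and -1.08 without resting replicate 1). Lor, the main protein of the cornified envelope (chromosome 3), stood at 682 and 388 CPM in growing-hair replicates 4 and 5, against 1897, 1384 and 1391 CPM in resting replicates 1, 2 and 3 (difference -1.58 ± 0.36, SE). Lce1m, a late envelope protein, stood at 495 and 250 CPM, against 1271, 785 and 919 CPM, and Lce1c at 44.0 and 22.7 CPM, against 124, 72.9 and 76.2 CPM. All 3 were lowest in growing-hair replicate 5, which is highest in Krt73, while resting replicates 2 and 3 were close to each other. Lce1 genes made 9 of the 11 lower calls; they are near-identical copies, and reads may be split between them. With the 24 months libraries put on the resting side, 4 genes of the list were called lower, and without growing-hair replicate 5, 3 were.

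Epidermal and stress keratins were called both ways, 4 lower and 3 higher of 13, with a median of -0.30. Krt10, the keratin of suprabasal cells, stood at 4950 and 2519 CPM in growing-hair replicates 4 and 5, against 8359, 8264 and 7010 CPM in resting replicates 1, 2 and 3, and its partner Krt1 at 1439 and 560 CPM, against 1901, 2436 and 1735 CPM. Krt77 and Krt78 were the other 2 lower calls. Without growing-hair replicate 5 the list had 1 lower call, and with the 24 months libraries put on the resting side 0. At 24 months Krt10 ranged from 3618 to 8037 CPM, across the gap between the sides. Krt5, the keratin of basal cells, was not called, at 2733 and 3677 CPM, against 3994, 4077 and 3405 CPM. Calm4 and Calm5, calmodulin-like genes of differentiating keratinocytes, were called lower, with Calm5 at 43.6 and 24.1 CPM, against 144, 72.8 and 75.5 CPM.

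Some epidermal genes were called higher on the growing-hair side. Sprr1a, a small proline-rich envelope protein, stood at 248 and 782 CPM in growing-hair replicates 4 and 5, against 87.2, 93.7 and 55.2 CPM in resting replicates 1, 2 and 3, and Sprr2h at 12.2 and 42.6 CPM, against 0.713, 1.1 and 0.780 CPM. Krt75, the keratin of the companion layer next to the root sheath, stood at 283 and 793 CPM, against 67.3, 83.7 and 63.5 CPM, and Krt6a, of the companion layer and of stressed epidermis, at 161 and 407 CPM, against 60.7, 73.2 and 53.3 CPM. Replicate 5 was the higher library in all 4. Krt6b and Krt16 stood higher in replicate 4 instead, Krt6b at 37.7 and 22.3 CPM and Krt16 at 50.6 and 35.9 CPM, against at most 5.03 and 22 CPM on the resting side. At 24 months Krt16 reached 76.0 CPM, above both growing-hair libraries.

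The largest lower differences, those of Fosb and Fos, belonged to immediate early genes, which switch on within minutes of a stimulus and encode AP-1 and other transcription factors. Of 21 such genes, 8 were called lower and 1 higher, with a median of -0.51 (6 lower, 0 higher and -0.22 without resting replicate 1). Fos, an AP-1 subunit, stood at 25.7 and 27.9 CPM in growing-hair replicates 4 and 5, against 588, 146 and 281 CPM in resting replicates 1, 2 and 3 (difference -3.43 ± 0.75, SE). Fosb, a further AP-1 subunit, stood at 8.35 and 5.09 CPM, against 248, 47.3 and 82.3 CPM. Dusp1, a phosphatase that turns off MAP kinases, stood at 100 and 63.2 CPM, against 491, 228 and 267 CPM. All 3 were highest in resting replicate 1, and without it the differences were -2.92, -3.25 and -1.63.

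For Fos the growing-hair libraries were not the ones apart from the series, since the 24 months libraries held 22.4 to 34.0 CPM and all 3 resting libraries lay above the 7 others. Dusp1 at 24 months, 91.2 to 162 CPM, likewise lay below all 3 resting libraries. With the 24 months libraries put on the resting side, 1 gene of the list was called lower. The calls for Egr1 and Klf2 were not made without resting replicate 1, at -0.80 and -0.82, nor was the higher call for Egr3. Egr3 stood at 35.2 and 58.4 CPM on the growing-hair side, against 8.24, 31.8 and 29.0 CPM on the resting side. Jun, the usual partner of Fos, differed by 0.03 and Junb by -0.42. The sources used here do not give the hour of dissection or the handling of the skin. Dbp, a clock gene with a daily rhythm, stood at 3.07 and 5.66 CPM, against 9.20, 7.90 and 9.62 CPM and 11.3 to 44.1 CPM at 24 months.

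**Figure D4:**
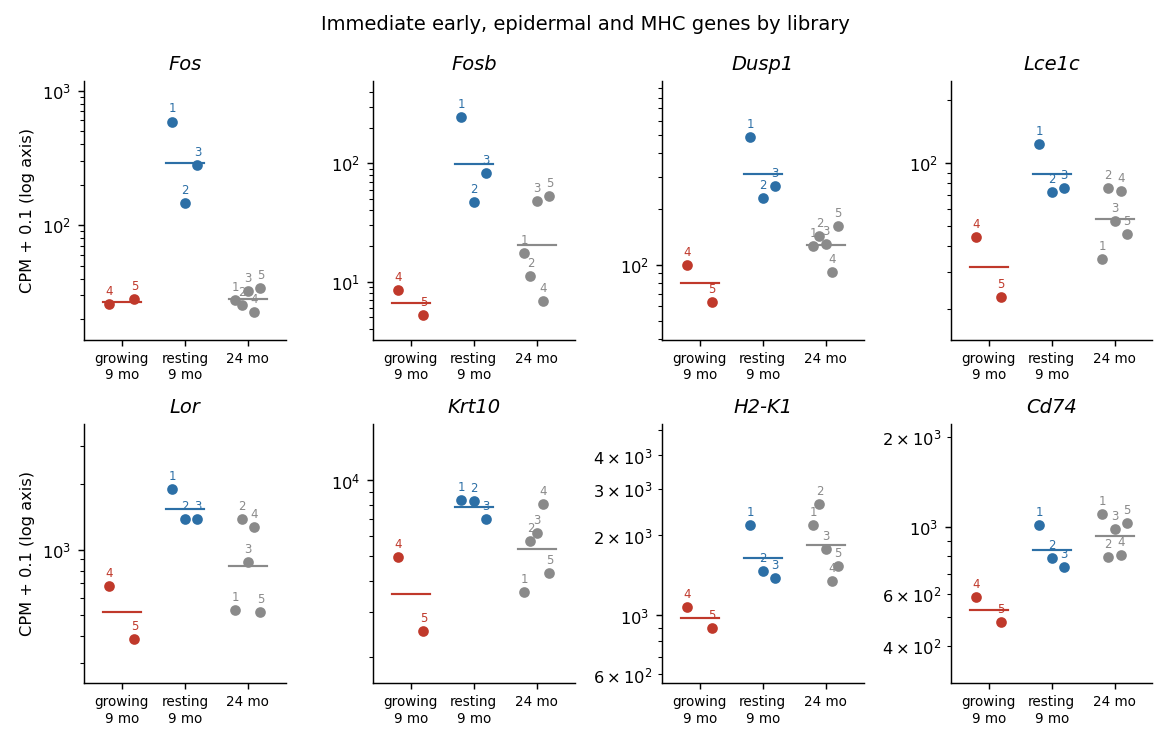
CPM plus 0.1 on a log axis for 8 genes that lay lower on the growing-hair side, 1 point per library labelled with its replicate number, for the growing-hair side, the resting side and the 24 months group; bars are geometric means. Fos is at 25.7 and 27.9 on the growing-hair side, at 146 to 588 in resting libraries and at 22.4 to 34.0 at 24 months, whereas H2-K1 is at 1079 and 894, against at least 1381 resting and 1348 at 24 months.

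Antigen presentation genes lay lower on the growing-hair side by less than 2-fold. None of 18 MHC class I genes was called (some were called lower without replicate 4, where lower calls also rose over all genes). Yet 15 lay below the resting side without overlap, against 16.3% of all genes, and the median was -0.67. H2-K1, a class I heavy chain, stood at 1079 and 894 CPM in growing-hair replicates 4 and 5, against 2187, 1473 and 1381 CPM in resting replicates 1, 2 and 3, and B2m, the class I light chain, at 1217 and 878 CPM, against 2494, 1633 and 1504 CPM. Cd74, the class II invariant chain, stood at 582 and 483 CPM, against 1013, 788 and 734 CPM, and all 11 class II genes had negative differences with a median of -0.64. In these 3 genes the growing-hair libraries were the lowest 2 of all 10, since 24 months libraries held at least 1348, 1438 and 792 CPM. Without resting replicate 1 the medians were -0.58 and -0.48. Several class I genes are near-identical, and reads may be split between them.

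Among immune cell lists, lower calls were 1 of 20 T cell genes (5%), 1 of 11 mast cell genes (9.09%) and 4 of 31 cytokine and chemokine genes (12.9%), against 1.28% of all genes. T cell and cytotoxic genes had a median of -0.70, with 19 of 20 negative and 1 lower call, Cd3g, a chain of the T cell receptor complex, at 9.02 and 5.06 CPM in growing-hair replicates 4 and 5, against 17.4, 12.2 and 11.9 CPM in resting replicates 1, 2 and 3. The 9 genes of epidermal gamma-delta T cells were all negative, with a median of -0.69 and 0 calls. Their summed level was 72.2 and 47 CPM on the growing-hair side, against 118, 86.2 and 82.5 CPM on the resting side. Without resting replicate 1 the medians of the T cell list and of the gamma-delta list were -0.59 and -0.64. Cd3g was not called without resting replicate 1, where its difference was -0.83, nor under 5 other settings. Lower calls in the T cell list rose when replicate 5 alone formed the growing-hair side, as they did over all genes. No T cell gene was called lower with replicate 4 alone. The mast cell list had a median of -0.70, and of -0.55 without resting replicate 1. Its summed level was 177 and 160 CPM, against 306, 237 and 207 CPM. Mrgprb2, a mast cell receptor, was called lower at 14.2 and 8.29 CPM, against 30.5, 23.6 and 21.3 CPM, but not without replicate 5.

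Ptprc, the common leukocyte antigen, overlapped between sides, at 52.5 and 31.6 CPM in growing-hair replicates 4 and 5, against 42.5, 51.0 and 49.9 CPM in resting replicates 1, 2 and 3. Macrophage genes had a median of -0.24 and interferon-stimulated genes of -0.19, with 0 calls in 29 and 39 genes. Cytokine and chemokine genes had 4 lower calls of 31, Cxcl1, Ccl27a, Il34 and Il18, and none of the 4 was called without resting replicate 1. Cxcl1 was at low levels, 0.104 and 0.232 CPM, against 4.71, 0.733 and 0.858 CPM. Without resting replicate 1 its difference was -2.02, with all remaining libraries under the minimum of 1 CPM. The list had fewer lower calls without replicate 5 and more without replicate 4, as had all genes compared. Ccl27a, which draws T cells to the skin, stood at 23.7 and 21.6 CPM, against 93.8, 35.7 and 35.7 CPM, and without resting replicate 1 its difference was -0.66. S100a8, shared by neutrophils and stressed keratinocytes, was called higher at 5.46 and 8.22 CPM, against 4.42, 2.23 and 3.10 CPM, while 24 months libraries held 10.3 to 50.8 CPM.

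Of the 57 gene lists, 22 had 0 called members. Among them were the lists for white fat, brown fat, cholesterol synthesis, dermal fibroblasts, blood vessel endothelium, smooth muscle, skeletal muscle and nerve. Their medians ran from -0.54 to -0.10. Below the resting side without overlap lay 9 of 15 nerve genes, 9 of 21 endothelium genes and 7 of 17 fibroblast genes. The share over all genes was 16.3%, and 0 genes of these lists lay above. Cholesterol synthesis had 6 of 24 below, and skeletal muscle 0 of 28. Skeletal muscle genes summed to 81310 and 37350 CPM in growing-hair replicates 4 and 5, against 88620, 62730 and 100900 CPM in resting replicates 1, 2 and 3, so that muscle overlapped between sides and was lowest in the library with the most hair keratin, replicate 5. Without replicate 4, which leaves replicate 5 alone, most of the 28 skeletal muscle genes were called lower. Lower calls over all genes also rose in that setting. White fat genes summed to 13330 and 9221 CPM, against 13070, 9981 and 15510 CPM, and sebaceous genes to 5299 and 4660 CPM, against 5765, 5927 and 7433 CPM. The part of these shares in the other differences was not tested. Adipoq and Lep, hormones of fat cells, Scd1, a desaturase of fat and sebum, Hmgcs1, of cholesterol synthesis, Acta1, the actin of skeletal muscle, Igf1 and Vegfa were not called, with differences of -0.45, -0.79, -0.37, -0.16, -0.72, -0.15 and -0.06. Sln, a regulator of the muscle calcium pump, was called lower at 45.5 and 37.2 CPM, against 294, 90.8 and 76.5 CPM, although 24 months libraries held 138 to 205 CPM. Its difference was -1.62, and -1.02 without resting replicate 1. Other lower genes outside the lists were Apol7a, of the apolipoprotein L family, at 6.08 and 2.2 CPM, against 8.28, 9.13 and 13.5 CPM, Pyy, a gut hormone gene, at 1.98 and 1.77 CPM, against 12.2, 2.67 and 13.1 CPM, and Wfdc3, of a protease inhibitor family, at 5.41 and 4.16 CPM, against 27.5, 12.7 and 14.8 CPM. Without resting replicate 1 the differences of Apol7a, Pyy and Wfdc3 were -1.59, -1.64 and -1.52.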

How the data were processed

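Libraries for RNA sequencing were made from mouse skin with an Illumina mRNA kit, per the labels' protocols. The submitters' processing notes name, without roles, featureCounts 1.4.6-p4, STAR 2.4.1d, CASAVA 1.7 and the build GRCm38. The sources used here do not give the annotation release, the strand setting or the handling of multiply matching reads, so that near-identical, overlapping and antisense genes are uncertain. The authors deposited whole-number counts per Ensembl gene, not normalised, and these counts were used throughout. They cover 47729 genes in 10 libraries, and 419 identifiers without a symbol held at most 0.0372% of a library's counts. A second deposited table, of RPKM values, was not used, since its ratios to the counts were not constant within a gene after division by the column totals.

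Replicates were numbered in listing order, and a number pairs no libraries. No 2 of the 45 library pairs agreed within sampling noise (chi-square per gene at least 31.9). Libraries were scaled by TMM in edgeR 4.0.16 (R 4.3.3) over all 10 libraries, log2 CPM used a prior count of 2, and genes with a mean of at least 1 CPM over the 5 libraries of 9 months were compared. The call rule was also run on simulated counts, with the same relative spread for all genes and equal means within each side. These libraries differ from that setting, so that run does not measure how often calls here are wrong. Positions and summed exon lengths came from GENCODE vM21 on GRCm38, matched by identifier, and promoters from RefSeq (GRCm38.p6). The precision behind each value is shown by the spread between libraries, and levels well under 1 CPM rest on few counts.

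The sides, the 57 gene lists and the rules were chosen with earlier results of these data known. Named genes were the markers Krt73, Krt26, Fgf5 and Corin; the 12 largest called differences in each direction with a mean of at least 5 CPM, leaving out hair keratins, Krtap, predicted genes, pseudogenes and receptor segments, with at most 3 members per list; up to 3 called members per direction and the most abundant member of each list; and a fixed set of 33 genes. Other genes that the text names, as called members or with a difference, were picked with their values in view. The alternatives were other scalings (column totals, DESeq2 1.42.0 size factors, totals without hair genes), other filters, folds and prior counts, edgeR's fitted fold changes, leaving out each library, and adding the 24 months libraries to the resting side.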

Additional observations from a re-analysis of the deposited data

Results flagged for a closer look

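In 5 gene lists, 1 library of the 9 months group lay far from the others in summed CPM, by the ratio of its gap to the nearest library over the whole range on the log2 scale. Chance alone gives about 1 in 20 lists, and 57 were examined. Wnt pathway genes summed to 2302 CPM in growing-hair replicate 5, against 1418 to 1611 CPM in the 4 others (ratio 0.737). Lymphatic endothelium genes summed to 149 CPM in the same library, against 98.6 to 106 CPM (ratio 0.821). That list holds Tbx1, a gene also of the follicle, which stood at 72.3 CPM in replicate 5, against 14.1 to 27.2 CPM. Other matrix genes summed to 7950 CPM in resting replicate 3, against 5753 to 6109 CPM (ratio 0.815). Antioxidant and glutathione genes summed to 3703 CPM in resting replicate 1, against 2392 to 2581 CPM (ratio 0.826). Ribosomal protein genes summed to 16720 CPM in resting replicate 1, against 8631 to 9967 CPM (ratio 0.782), in the library whose short transcripts read high.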

How the results depend on the processing

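The counts of 932 higher and 192 lower genes moved little with scaling: column totals, DESeq2 size factors and totals without hair genes gave 970, 922 and 1052 higher and 163, 203 and 135 lower genes, and edgeR's fitted fold changes gave 911 and 215. Adding the 24 months libraries to the resting side gave 767 and 133, of which 699 and 69 were among the original calls. Other choices moved them further, in part by over 1.5 times. No filter on low values gave 1749 higher and 428 lower genes, edgeR's filterByExpr gave 1271 and 310 (within 1.5 times for the higher genes only), a 4-fold minimum gave 367 and 3, and no minimum size gave 2681 and 2444. Leaving out each library in turn gave 617 to 1509 higher and 129 to 901 lower genes, the lowest without replicate 5 and the highest without replicate 4. The difference of S100a8 was -0.45 with the 24 months libraries added and 1.09 without them. The share of calls that were higher was 82.9%, and 85.6%, 82% and 88.6% under the 3 other scalings. No paired analysis was possible because the replicate numbers follow the listing order and the sides share no number.

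With 2 libraries on a side, every difference rests on their spread, and the cause of the changes above was not tested.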

Other observations

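Among gene groups not described above, clock genes had a median difference of -0.38 and 9 of 19 lay below the resting side without overlap, against 16.3% of all genes. Dbp was the only called member, and it was not called without replicate 4, at -0.64, or with totals without hair genes, at -0.99. Homeobox cluster genes had 2 higher calls, Hoxc13 and Hoxb3, and 1 lower call, Hoxd10, of 28 compared, or 7.14% and 3.57%, against 6.21% and 1.28% of all genes. Of the 28, 12 lay below without overlap, against 16.3% of all genes. Hoxb3 and Hoxd10 were not called without resting replicate 1, at 0.84 and -0.84. Krt8 and Krt18, keratins of simple epithelia, stood at 3.62 and 2.82 CPM and at 8.76 and 13.8 CPM in growing-hair replicates 4 and 5. In resting replicates 1, 2 and 3 they stood at 0.0713, 0.333 and 0.520 CPM and at 0.820, 0.467 and 0.988 CPM. Slc4a1, the anion exchanger of red blood cells, was called higher at 5.41 and 22.6 CPM, against 0.820, 1.30 and 2.44 CPM, while the globin gene Hbb-bs overlapped, at 583 and 267 CPM, against 623, 212 and 611 CPM. Of 8 microRNA genes compared, 3 were called lower, against 1.28% of all genes, and 0 higher; without resting replicate 1, whose short transcripts read high, 1 of the 8, Mir8116, was called lower. All 3 lay below 2 CPM on average.

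Of the 853 higher genes that are not hair keratins or Krtap, 710 were in none of the 57 lists, and so were 151 of the 192 lower genes.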
